A study of Mus musculus with 2 samples.

Results

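The cells described here are macrophages of mouse dorsal skin that carried messages of at least 2 of the 4 genes Cxcl3, Acod1, Areg and Il10. They numbered 122 of the 3797 cells that passed the filter on quality, a share of 3.21% (exact 95% binomial interval 2.68% to 3.82%). The cells were selected on their own counts by a fixed rule, applied to both libraries together. Each cell had at least 500 genes, at least 1000 UMIs (unique molecular identifiers, which count distinct RNA molecules) and no more than 10% of its counts from mitochondrial genes. It had at least 15 UMIs of C1qa, C1qb and C1qc per 10000, fewer than 4 of the 6 resident genes Folr2, Cd163, Lyve1, Cd209f, Cbr2 and Ednrb, not both of the monocyte genes Ly6c2 and Plac8, and fewer than 20 UMIs of Col1a1, Col1a2 and Col3a1 per 10000. The 371 cells that met every other part of the rule but carried only 0 or 1 of the 4 marker genes are called the other macrophages and serve as the comparison.

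The study sorted F4/80-positive cells with high MHC class II from enzyme-digested dorsal skin of wild-type (WT) male mice aged 9 or 108 weeks, and made 1 droplet library per age from 2 pooled mice. In the matrix the barcodes of each library end in their own number, 1 or 2, and nothing among the sources says which ending is which age. The ages were therefore not compared, and the endings are given as libraries of unknown age. No culture step or treatment separated the groups, and MHC class II, used for the sort, is no finding here. The matrix held 3235 barcodes with suffix 1 (35821853 UMIs) and 2022 with suffix 2 (20382748 UMIs), and 1 barcode sequence occurred in both. The members had 1502714 UMIs in all and a median of 10899 per cell, against 3208530 and a median of 8425 in the other macrophages. Since cells of a pooled library are not replicates, no test between groups was possible and no p-value is given. Intervals are exact 95% intervals that cover counting error only.

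Macrophages that sense microbial products or tissue damage switch on NF-kB and AP-1 transcription factors, and within hours transcribe neutrophil-attracting chemokines, interleukins and enzymes of lipid mediator synthesis. Cxcl3 encodes one of the CXC chemokines that draw neutrophils through the receptor CXCR2. Acod1 encodes the mitochondrial enzyme that makes itaconate, a metabolite that restrains inflammation. Areg encodes amphiregulin, a ligand of the EGF receptor that acts on epithelium during repair, and Il10 encodes the cytokine that damps macrophage activation. The same rule thus joins genes that start inflammation with genes that limit it.

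The promoters of Cxcl1, Cxcl2 and Il6 are shown first, beside those of the marker genes. They do not stand for all higher genes, since Mmp13, Il1a, Ccl5, Clec4e and Ptgs2, among others, were not looked up. The 250 bases before the RefSeq start of each gene are given 5′ to 3′ on build GRCm38.p6, with motif matches in capitals. Motifs were searched on both strands. They were the 10-base NF-kB consensus, the AP-1 motif TGANTCA and the cyclic AMP response element TGACGTCA. Of 7 genes looked up, 6 were matched. Il10 was not.
Cxcl1 (chr5:90890995-90891244, plus strand): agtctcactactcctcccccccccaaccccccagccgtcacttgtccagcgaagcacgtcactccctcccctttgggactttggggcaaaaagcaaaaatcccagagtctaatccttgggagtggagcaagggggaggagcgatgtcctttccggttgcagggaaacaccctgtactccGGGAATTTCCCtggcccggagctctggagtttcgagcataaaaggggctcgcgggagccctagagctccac
Cxcl2 (chr5:90903649-90903898, plus strand): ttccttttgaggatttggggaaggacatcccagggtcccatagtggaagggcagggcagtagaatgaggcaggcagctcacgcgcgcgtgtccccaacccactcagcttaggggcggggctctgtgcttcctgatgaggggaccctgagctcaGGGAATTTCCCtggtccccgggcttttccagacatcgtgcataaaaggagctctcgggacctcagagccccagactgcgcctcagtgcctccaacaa
Cxcl3 (chr5:90785851-90786100, plus strand): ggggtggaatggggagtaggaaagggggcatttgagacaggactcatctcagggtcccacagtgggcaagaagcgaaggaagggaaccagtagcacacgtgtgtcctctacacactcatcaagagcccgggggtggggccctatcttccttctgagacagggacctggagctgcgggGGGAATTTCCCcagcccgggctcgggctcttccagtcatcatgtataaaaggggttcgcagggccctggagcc
Il6 (chr5:30012864-30013113, plus strand): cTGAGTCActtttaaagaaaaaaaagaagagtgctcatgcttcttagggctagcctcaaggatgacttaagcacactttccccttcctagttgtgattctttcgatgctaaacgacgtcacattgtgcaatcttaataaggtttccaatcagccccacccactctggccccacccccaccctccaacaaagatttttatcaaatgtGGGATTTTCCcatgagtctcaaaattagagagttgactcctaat
Areg (chr5:91139349-91139598, plus strand): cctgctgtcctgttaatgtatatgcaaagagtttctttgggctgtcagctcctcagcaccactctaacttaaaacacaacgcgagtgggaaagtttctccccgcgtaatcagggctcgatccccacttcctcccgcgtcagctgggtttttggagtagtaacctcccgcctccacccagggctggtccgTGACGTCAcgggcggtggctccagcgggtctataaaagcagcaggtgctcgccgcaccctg
Acod1 (chr14:103046762-103047011, plus strand): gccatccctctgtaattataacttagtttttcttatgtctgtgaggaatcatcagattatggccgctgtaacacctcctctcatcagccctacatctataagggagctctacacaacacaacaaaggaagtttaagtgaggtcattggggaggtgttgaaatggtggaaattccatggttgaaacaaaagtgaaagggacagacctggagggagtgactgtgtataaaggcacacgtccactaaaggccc

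In Cxcl1, Cxcl2 and Cxcl3 the capitals mark the same 11 bases, GGGAATTTCCC, which match the NF-kB consensus on both strands and lie between 97 and 61 bases before the start. In Il6 they mark an AP-1 motif at the far end of the window and an NF-kB match 44 to 35 bases before the start. In Areg they mark a cyclic AMP response element 61 to 54 bases before the start. The Acod1 window held no match to these motifs. Over all 32851 promoters of the RefSeq set, 3.90% of windows of this length held the NF-kB consensus, 6.75% the AP-1 motif and 1.55% the cyclic AMP response element. A match describes the letters of the window and is not a measured binding site.

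The 4 marker genes chose the cells, so that their values are a description. Il10 (chr1:131019845-131024974) was found in 99 of the 122 members, Cxcl3 (chr5:90786103-90789600) in 93, Areg (chr5:91139599-91148432) in 65 and Acod1 (chr14:103046977-103056573) in 27, with positions from GENCODE vM21 on GRCm38. The commonest combination was Cxcl3 with Il10 in 42 cells, followed by Areg with Il10 in 22, Cxcl3 with Areg and Il10 in 16, and Cxcl3 with Areg in 15. All 4 genes were found together in 6 cells, and 34 cells carried 3 or 4 of them. Acod1 was thus the rarest of the markers in these cells, although its summed level was 61.2 UMIs per 1000000 (CPM, interval 49.4 to 75.1) against 1.87 (0.686 to 4.07) in the other macrophages. In members with the gene, the median count was 8 UMIs for Cxcl3, 4 for Areg, 4 for Il10 and 2 for Acod1, and the highest counts were 85, 119, 51 and 15. The members held 29.5% of all Areg UMIs of the 3797 cells, 28.6% of those of Il10, 25.3% of those of Cxcl3 and 23.5% of those of Acod1.

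**Figure D1:**
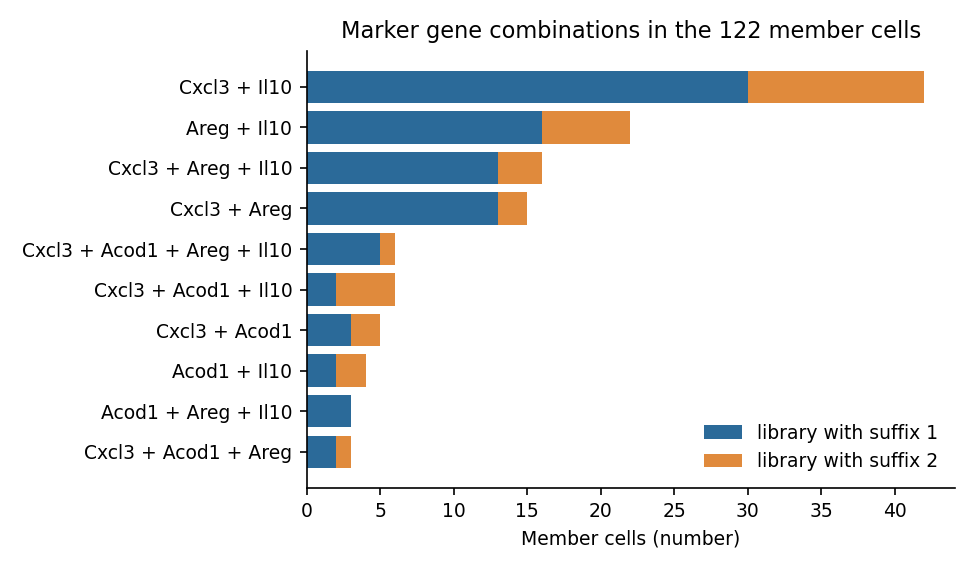
Number of member cells (x axis) with each combination of the 4 marker genes (y axis), stacked by library. Cxcl3 with Il10 is the longest bar, with 30 cells of the library with suffix 1 and 12 of the library with suffix 2.

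Both libraries contributed members. Of the cells that met every other part of the rule, 89 of 373 (23.9%, interval 19.6% to 28.5%) were members in the library with suffix 1 and 33 of 120 (27.5%, 19.7% to 36.4%) in the library with suffix 2. Cxcl3 stood at 725 CPM in members of the first library and 633 in the second, Areg at 488 and 692, Il10 at 536 and 386, and Acod1 at 43.5 and 107. Acod1 is therefore the marker whose level differed most between the libraries.

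Detection of the markers moved with depth. The cells that met the rest of the rule were split into 4 groups by UMIs per cell. The shallowest group held 7 members among 123 cells (5.69%), the next 28 of 123 (22.8%), the one after it 36 of 123 (29.3%) and the deepest 51 of 124 (41.1%). When the rule was applied after each cell had been thinned to 2000 UMIs, 53 cells passed. The median depth was 8186 UMIs in cells with no marker gene, 8747 with 1, 10782.5 with 2 and 12730.5 with 3 or 4. Just outside the threshold were 152 cells with exactly 1 marker gene, and just inside it 88 with exactly 2.

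Cells with 2 or more marker genes were not confined to the members. Of 339 such cells, 120 passed the C1q limit but had 4 or more resident genes, 70 fell below the C1q limit (64 of them with Ptprc, the leukocyte antigen CD45), 26 carried both Ly6c2 and Plac8, and 1 failed only on collagen. In C1q-positive cells with low collagen and 4 or more resident genes, called the resident gene cells here, 119 of 472 (25.2%, interval 21.4% to 29.4%) carried 2 or more marker genes, beside 122 of 493 (24.7%, 21.0% to 28.8%) among the cells with fewer resident genes. These intervals overlap nearly in full. Among the members 27 had 3 resident genes, just inside that limit, and 15 had none, while 19 cells with the markers were left out with exactly 4. Their C1q content ran from 16.6 to 178 UMIs per 10000 with a median of 77.7, and the highest of the 51 cells left out by C1q alone had 13.2.

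The members carried the genes of the macrophage part of the label, and both groups had been chosen on C1q. All 16 macrophage genes listed for the check, among them Adgre1, Csf1r and Cd68, had UMIs in the members. Their summed level was 21537 CPM against 20587 in the other macrophages. Within this sum Cd14 and C5ar1 stood higher in members, at 3647 and 730 CPM against 2075 and 549. Mertk stood lower, at 18.6 CPM against 32.7, a log2 ratio of -0.81 (-1.47 to -0.20). The markers of neutrophils, mast cells, T cells, B cells and melanocytes summed to 35.9, 2.00, 0.665, 3.99 and 0 CPM, with S100a9, Cpa3, Cd3e, Cd79a and Dct at 0. Of these lists, 3 of 8, 1 of 6, 1 of 6, 2 of 5 and 0 of 4 genes had any UMI. Endothelial genes (5 of 5 with UMIs, none at 0) summed to 281 CPM in members and 189 in the other macrophages, and by library to 334 against 247 and 145 against 18.4. Pericyte and smooth muscle genes (5 of 5) summed to 126 against 41.1 CPM, by library to 81.4 against 27.6 and 239 against 81.0. At least 2 markers of some other cell type were found in 23 members (18.9%) and in 57 other macrophages (15.4%). The other lists were low or alike in both groups. In members and other macrophages, the summed levels were 95.2 and 82.3 CPM for NK and innate lymphoid cells, 35.9 and 35.8 for type 1 dendritic cells, 217 and 269 for type 2 dendritic cells, and 8.65 and 48.0 for mature dendritic cells. They were 2.66 and 10.6 CPM for Langerhans cells, 15.3 and 16.2 for keratinocytes, 53.2 and 57.0 for fibroblasts, and 33.9 and 32.7 for Schwann cells. No doublet caller was run. Values without these cells are given for some of the named genes that they move.

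Levels of 4673 genes outside the rule with at least 100 UMIs over both groups were compared. By size alone, 47 genes (1.01% of those tested) were 2-fold or more higher in the members and 55 (1.18%) were 2-fold or more lower, with a median log2 ratio of -0.06 over all. The highest ratios were those of Cfd, Hp and Car3, of which Cfd and Car3 are known from fat cells and were named after their values were seen. Cfd had 1120 UMIs in members and 1 in the other macrophages, Hp 419 and 5, and Car3 478 and 16. A single member held all Cfd and Hp UMIs of the members, and 1 member held 98.1% of those of Car3. Without cells that carry markers of another type, 32 of the 47 higher and 43 of the 55 lower genes stayed past 2-fold. The higher genes also held 4 inflammatory cytokines and 3 CXC chemokines, and the lower ones 7 immediate early genes, 2 heat shock genes and 4 lipid-associated genes. The rest of both sets lay mostly outside these lists. All of these values come from the same counts on which the cells were selected and are given as a description.

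**Figure D2:**
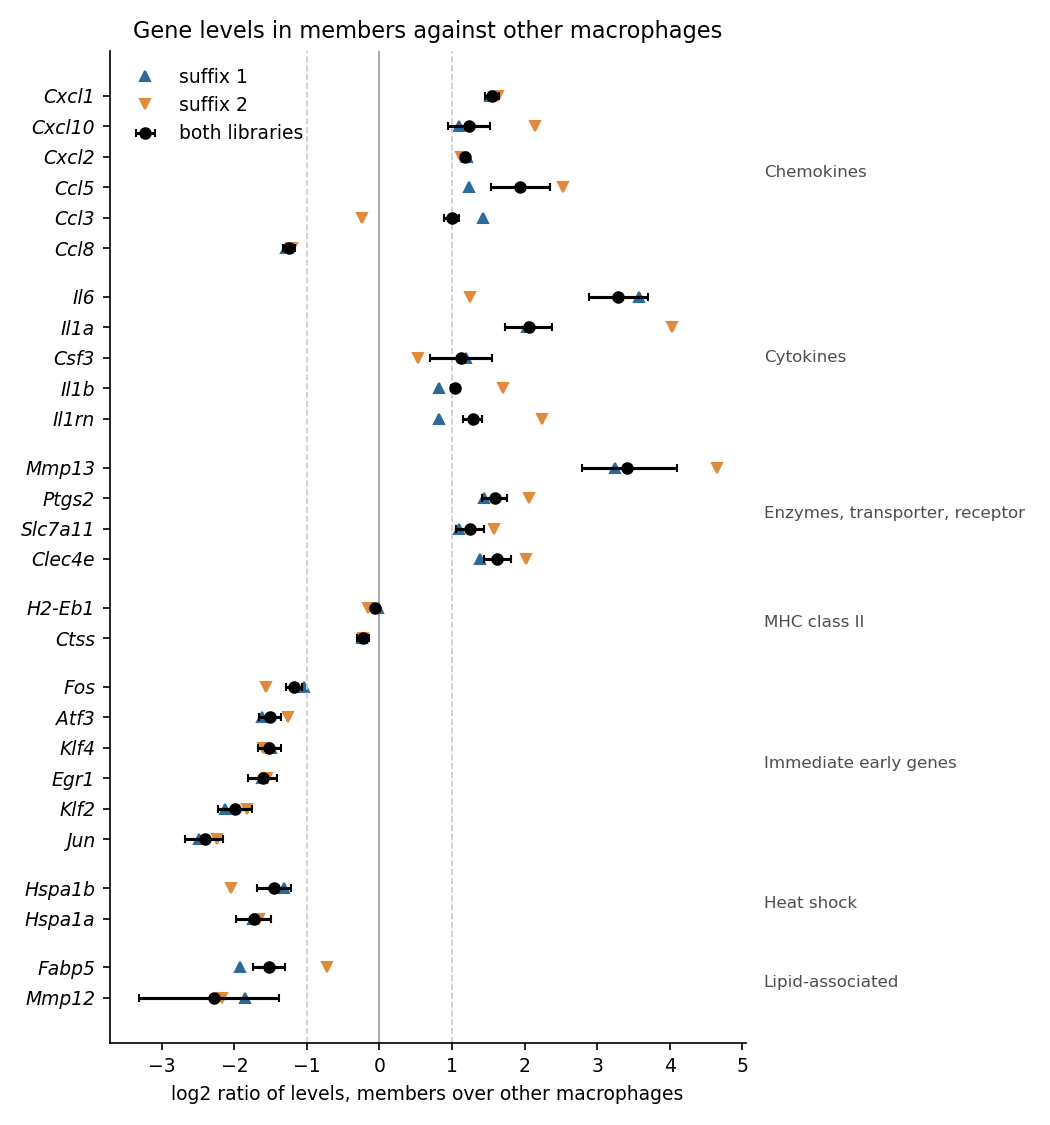
Log2 ratio of the level in members over that in the other macrophages (x axis) for named genes (y axis), grouped by role. Black points with bars are both libraries with exact 95% counting intervals, triangles are each library alone, and dashed lines mark 2-fold. Mmp12 had no UMI in members with suffix 2 and is drawn there from 3 counts. Most genes keep their side of 0 in both libraries, with Ccl3 as an exception at 1.43 and -0.25.

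Chemokines of the CXC family stood highest as a group. Of the 8 listed outside the rule, 5 could be tested, 3 were 2-fold or more higher (background 1.01%) and none was lower, with a median log2 ratio of 1.19. Cxcl2, a neutrophil attractant in a cluster with Cxcl1 and Cxcl3 on chromosome 5, was found in all 122 members and in 310 (83.6%) of the other macrophages. It stood at 12713 and 12102 CPM in the members of the libraries with suffix 1 and 2, against 5502 and 5548 in the other macrophages. The level in members was more than 2-fold higher in each library, and the pooled log2 ratio was 1.19 (interval 1.16 to 1.22). Per cell, Cxcl2 ran from 2.96 to 958 UMIs per 10000 in members, with a median of 96.8, and from 0 to 682 with a median of 29.2 in the others. Cxcl1, another neutrophil attractant of the same cluster, stood at 1321 and 1464 CPM in members by library against 461 and 471, with a log2 ratio of 1.55 (1.46 to 1.65). Reads of Cxcl1, Cxcl2 and Cxcl3 may in part be hard to assign, since the genes are close paralogs. Cxcl10, which attracts T cells after interferon, stood at 153 and 109 CPM against 71.5 and 24.5 and had a log2 ratio of 1.24 (0.95 to 1.53).

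Among CC chemokines, 10 of 12 were tested, with 1 at 2-fold or more higher, 1 at 2-fold or more lower (background 1.18%) and a median log2 ratio of 0.45. Ccl5, an attractant of T cells and monocytes, stood at 48.1 and 213 CPM in members by library against 20.5 and 36.8, a log2 ratio of 1.94 (1.53 to 2.36). The lower one was Ccl8, a chemokine of resident skin macrophages, at 939 and 1239 CPM against 2291 and 2857, a log2 ratio of -1.25 (-1.33 to -1.17). Its level in the resident gene cells was 6649 CPM. Ccl3, which recruits monocytes, lay at the 2-fold line with a log2 ratio of 1.00 (0.89 to 1.10), but the libraries went opposite ways. It stood at 1098 CPM in members against 408 in the library with suffix 1, and at 564 against 668 in the library with suffix 2. The monocyte attractants Ccl2 and Ccl7 were found in 116 and 109 members and had log2 ratios of 0.60 and 0.22.

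Of 15 inflammatory cytokine genes, 8 were tested, 4 were 2-fold or more higher and none was lower, with a median log2 ratio of 0.77. Il1b, the precursor of secreted interleukin-1β, stood at 2874 and 3606 CPM in members by library, and at 1632 and 1106 in the other macrophages. Its log2 ratio was 1.04 (0.98 to 1.10) over both libraries, and 0.82 and 1.70 in each. It reached 10 or more UMIs per 10000 in 67 members (54.9%, interval 45.7% to 63.9%) and in 88 (23.7%, 19.5% to 28.4%) of the others. Il1a, the membrane-bound and alarm-like relative, stood at 205 and 40.3 CPM against 50.1 and 2.45, a log2 ratio of 2.06 (1.74 to 2.39), with 17 UMIs in members with suffix 2. Both interleukin-1 genes were thus higher in each library. Il6 stood at 260 and 37.9 CPM against 21.7 and 15.9, a log2 ratio of 3.29 (2.89 to 3.70). Its size rests on few cells. A single member held 34.7% of the 297 Il6 UMIs, and the log2 ratio was 2.85 without the top cell of each group, 2.07 without cells that carry markers of another type and 1.25 in the library with suffix 2, whose members had 16 UMIs. Csf3, the growth factor of neutrophils, stood at 84.2 and 7.11 CPM (3 UMIs) against 36.8 and 4.91, a log2 ratio of 1.13 (0.70 to 1.56). Tnf, at 233 and 235 CPM against 169 and 151, stayed under 2-fold with a log2 ratio of 0.51 (0.31 to 0.71).

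The EGF receptor ligands besides Areg were mostly scarce. Of 7 listed, only Hbegf reached 100 UMIs, with 264 and 168 CPM in members by library against 148 and 85.9 and a log2 ratio of 0.84 (0.63 to 1.05). Ereg, the neighbour of Areg, had 1 UMI in the members and none in the others.

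Genes that restrain inflammation were partly higher as well. Of 13 genes of the interleukin-10 pathway and other brakes, 11 were tested, 1 was 2-fold or more higher and none was lower, with a median log2 ratio of 0.24. Il1rn, the antagonist of the interleukin-1 receptor, stood at 545 and 1130 CPM in members by library against 309 and 238. Its log2 ratio was 1.29 (1.16 to 1.41), with 0.82 in the library with suffix 1 and 2.25 in that with suffix 2. Tnip3, an inhibitor of NF-kB signalling, had a log2 ratio of 0.80 (0.70 to 0.91) and Socs3, the feedback inhibitor downstream of interleukin-10, one of 0.29 (0.14 to 0.45). The receptor genes Il10ra and Il10rb had log2 ratios of -0.08 and 0.09.

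Targets and feedback genes of NF-kB were slightly higher without reaching 2-fold. All 16 were tested, none was past 2-fold in either direction, 15 had a log2 ratio above 0 and 13 were above 0 in both libraries, with a median of 0.45. Over all 4673 genes tested, 1911 were above 0 and 1117 were above 0 in both libraries. Sod2, the mitochondrial superoxide dismutase, had a log2 ratio of 0.83 (0.66 to 1.00), Ier3 0.80 (0.72 to 0.89), Nfkbia, the inhibitor that holds NF-kB in the cytoplasm, 0.62 (0.54 to 0.70) and Tnfaip3, the deubiquitinase A20, 0.58 (0.41 to 0.74).

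Of 16 genes of itaconate, glycolysis and redox metabolism besides Acod1, 12 were tested, 1 was higher and none lower past 2-fold, with a median log2 ratio of 0.28. Slc7a11, the cystine importer that feeds glutathione synthesis, stood at 277 and 379 CPM against 130 and 126, with a log2 ratio of 1.25 (1.05 to 1.44). Among other genes that answer the antioxidant factor NRF2, Srxn1, Txnrd1 and Gclm had log2 ratios of 0.71 (0.54 to 0.88), 0.55 (0.40 to 0.70) and 0.55 (0.16 to 0.94). Of the 12 genes tested on this list, 9 were above 0 in both libraries and 3 were below 0 in both. Of 10 genes of prostaglandin and leukotriene synthesis, 5 were tested and 1 was higher. Ptgs2, the inducible cyclooxygenase, stood at 432 and 467 CPM against 159 and 112, a log2 ratio of 1.59 (1.42 to 1.76). Hpgds, which makes prostaglandin D2, had a log2 ratio of -0.59 (-0.95 to -0.23).

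Of 18 pattern recognition receptors, 9 were tested and 1 was higher past 2-fold, with a median log2 ratio of 0.31. Clec4e, the C-type lectin Mincle that senses mycobacterial glycolipid and dead cells, stood at 309 and 585 CPM against 119 and 145 and had a log2 ratio of 1.63 (1.44 to 1.81). Cd14, the co-receptor for lipopolysaccharide, was found in all 122 members at 3647 CPM against 2075, a log2 ratio of 0.81 (0.76 to 0.87), and Tlr2 and Nlrp3 had log2 ratios of 0.80 and 0.60. Of 9 interferon response genes tested among 14, Ifit1 was past 2-fold with a log2 ratio of 1.22 (0.67 to 1.76) on 62 UMIs, and the median was 0.38. RNA levels of the MHC class II presentation genes were nearly the same in both groups, which had been sorted alike on high MHC class II. All 8 genes tested lay within 2-fold around a median log2 ratio of -0.06. H2-Eb1 stood at 9722 and 10054 CPM against 9891 and 11179. Of the costimulatory genes 5 of 8 were tested and none was past 2-fold, with a median log2 ratio of 0.49 and Cd86 at 0.49 (0.33 to 0.66).

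Immediate early genes, which cells transcribe within minutes of a stimulus, formed the largest group of lower genes. All 20 were tested, 7 were 2-fold or more lower and none was higher, with a median log2 ratio of -0.51. Of the 20 genes 15 were below 0 in both libraries, beside 1741 of 4673 over all. Jun, a subunit of AP-1, stood at 81.4 and 97.1 CPM in members by library and at 457 and 458 in the other macrophages, a log2 ratio of -2.41 (-2.68 to -2.15). Klf2, a transcription factor that quiets macrophages, stood at 94.4 and 173 against 412 and 612 CPM, with a log2 ratio of -1.99 (-2.22 to -1.76). Egr1 had a log2 ratio of -1.61 (-1.82 to -1.41), Klf4 -1.52 (-1.67 to -1.36) and Fos, the partner of Jun, -1.18 (-1.29 to -1.07). Atf3, a stress-induced factor, stood at 270 CPM in members against 767. The same direction was seen in both libraries for each of these 6 genes. The shares of cells with any Jun UMI were close, 44 members (36.1%) and 154 (41.5%) of the others. Cells with high counts set the groups apart, since Jun reached 10 or more UMIs per 10000 in 1 member (0.820%, interval 0.0208% to 4.48%) and in 36 (9.70%, 6.89% to 13.2%) of the others. Without cells that carry markers of another type, the log2 ratios of Jun and Egr1 were -3.34 and -2.69. Not all genes of this list were lower. Maff, a small MAF protein, had a log2 ratio of 0.84 and Dusp2, a nuclear MAP kinase phosphatase, one of 0.54.

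Heat shock genes showed a similar direction. All 11 were tested, 2 were 2-fold or more lower and none was higher, with a median log2 ratio of -0.47. Hspa1a and Hspa1b, a near-identical pair of inducible HSP70 genes whose reads may be shared, had log2 ratios of -1.73 and -1.45. Hspa1a stood at 118 and 90.0 CPM in members by library against 396 and 283. Of 10 genes of the cyclic AMP response 9 were tested and 1 was lower past 2-fold, with a median log2 ratio of -0.45. As a mean over cells the median was 0.03, so that its direction depends on the weighting. The lower gene was Rgs2, a brake on G protein signalling, at 84.2 and 52.1 CPM against 212 and 244, a log2 ratio of -1.55 (-1.85 to -1.26).

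Of 13 lipid-associated genes 4 were 2-fold or more lower and none was higher, with a median log2 ratio of -0.35. Fabp5, a fatty acid carrier, stood at 105 and 211 CPM against 398 and 347, a log2 ratio of -1.52 (-1.74 to -1.30). Gpnmb, a glycoprotein of lipid-laden macrophages, had 1 UMI in the members and 238 in 29 other macrophages. Mmp12, the macrophage elastase, which is on this list and the next, had 11 and 114 UMIs, a log2 ratio of -2.28 (-3.32 to -1.39). Spp1 (osteopontin) gave no stable value, because 90.5% of the UMIs in the other macrophages came from 1 cell and the log2 ratio of -3.67 was -0.70 without the top cells.

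Of 31 genes of wound repair and matrix turnover, 19 were tested, 2 were higher and 2 lower past 2-fold, with a median log2 ratio of -0.01. Mmp13, a collagenase, stood at 91.6 and 61.6 CPM in members by library against 9.61 and 2.45 and had a log2 ratio of 3.42 (2.79 to 4.10). It was found in 19 members (15.6%) and 11 (2.96%) of the others, and 1 member held 39.2% of its UMIs. Timp1, an inhibitor of matrix metalloproteinases, had a log2 ratio of 1.49 (1.04 to 1.96), or 0.96 without the top cell of each group. Ctsk, a collagen-degrading cathepsin, had a log2 ratio of -1.65, or -0.29 without the top cells.

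Lists that describe where macrophages come from or what they clear showed small differences. Of the resident macrophage genes outside the rule 11 of 14 were tested and none was past 2-fold, with a median log2 ratio of -0.23 and Clec10a lowest at -0.77 (-0.93 to -0.60). Of the monocyte genes outside the rule 8 of 14 were tested and 2 were higher, with a median of 0.10. The 2 were Hp, all of whose 419 UMIs in members came from 1 cell, and F10, coagulation factor X, on 60 UMIs with a log2 ratio of 1.48 (0.90 to 2.06). Ccr2, the receptor that brings monocytes into tissue, had a log2 ratio of -0.28 (-0.44 to -0.13). None of 12 genes tested for engulfment of dying cells and none of 12 complement and Fc receptor genes was past 2-fold, with medians of -0.06 and 0.00. Of 10 cell cycle genes only 2 could be tested, and Stmn1, at 1.40, came to 0.47 without the top cells.

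Outside the lists, the 12 highest genes with the same direction in both libraries fell in unlike groups. Bcl2a1a and Bcl2a1b, near-identical anti-apoptotic genes that answer NF-kB, had log2 ratios of 1.46 (1.15 to 1.77) and 1.30 (1.19 to 1.41), and Bcl2a1b was found in 101 members (82.8%) and 181 (48.8%) of the others. Mir155hg, the host transcript of an inflammatory microRNA, had a log2 ratio of 1.21 (0.62 to 1.81), Arl5c 1.30 (1.03 to 1.57) and Rcan1, an inhibitor of calcineurin, 1.22 (1.42 and 0.15 by library). The highest, Rgs5 at 2.80 (2.34 to 3.28), is a pericyte gene found in 9 members, and its log2 ratio was 0.54 without cells that carry markers of another type. Rgs5 is itself one of the markers used to leave out those cells, so that its fall is in part set by the filter. Without the same cells, Plpp3, Tm4sf1 and Pakap came to 0.89, -0.19 and -1.19, from 1.63, 1.34 and 1.36. The cells left out carried at least 2 markers of any 1 of 15 other cell type lists. The shift of these 4 genes can therefore not be tied to a single type, and its cause was not tested. Among the 12 lowest, Anpep, the aminopeptidase CD13, had a log2 ratio of -1.73 (-2.47 to -1.07) and Gpr34, a lysophosphatidylserine receptor, -1.31 (-2.08 to -0.61). Hdc, Mcpt4 and Ccr7 were also among them, but a single cell held 83.0%, 95.7% and 83.0% of their UMIs in the other macrophages.

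Levels were also ordered by the number of marker genes in a cell, over 219 cells with none, 152 with 1, 88 with 2 and 34 with 3 or 4. Il1a stood at 14.5, 70.6, 122 and 231 CPM along this order and Ptgs2 at 118, 187, 344 and 637. Slc7a11 stood at 109, 155, 235 and 446 CPM, and Il1rn at 198, 421, 639 and 850. For these 4 genes each step up was beyond the counting intervals of its neighbours, although in the last group 1 cell held 42.2% of the Il1a and 34.7% of the Ptgs2 UMIs. Cxcl2 stood at 3897, 7752, 12696 and 12233 CPM and Il1b at 1074, 2087, 3046 and 3147, so that both levelled off at 2 marker genes. Jun was low from 1 marker gene on, with 682 CPM in cells without a marker gene and 145, 82.0 and 93.6 in the others. Egr1 followed the same course with 689, 171, 151 and 161 CPM, while Hspa1a stayed at 380 and 349 CPM before 139 and 53.7. The cells with 1 marker gene were thus between both ends for Il1a, Ptgs2, Slc7a11, Il1rn, Cxcl2 and Il1b, and near the members for Jun and Egr1. Other genes did not keep this order. Csf3 stood at 33.8, 21.6, 62.0 and 63.7 CPM, Ccl2 at 1214, 2455, 2854 and 2154, and Mmp13 at 1.61, 16.4, 119 and 11.9.

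**Figure D3:**
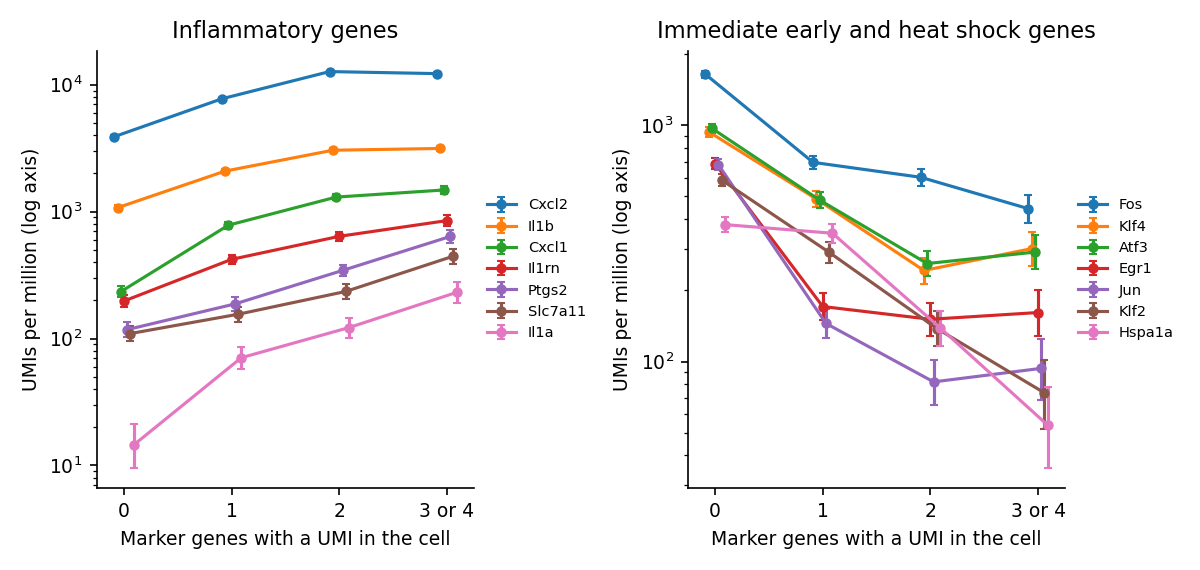
Level in CPM on a log axis (y) in cells with 0, 1, 2 and 3 or 4 of the marker genes (x), for inflammatory genes (left) and immediate early and heat shock genes (right), with exact 95% counting intervals as bars. Il1a climbs from 14.5 to 231 CPM, while Jun drops from 682 to 145 CPM between 0 and 1 marker gene.

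The members differed among themselves by which marker they carried. The 27 members with Acod1, with a median depth of 14890 UMIs against 10582 in the 95 without it, had Clec4e at 682 CPM (607 to 763) against 262 (232 to 295). Slc7a11 stood at 484 CPM (422 to 554) against 230 (202 to 261) and Cxcl10 at 345 (293 to 404) against 53.9 (40.9 to 69.9). The chemokines Ccl2 and Ccl3 went the other way, at 1339 CPM (1234 to 1451) against 3160 (3054 to 3269) and at 231 (189 to 280) against 1250 (1183 to 1319). Members with Cxcl3 had Cxcl2 at 14210 CPM against 7460 in those without it. Members with Il10 had Nfkbia at 1485 CPM (1417 to 1555) against 893 (788 to 1008) and Ccl8 at 1258 against 58.0, although 1 cell held 21.6% of the Ccl8 UMIs of the first group. For Il6, Cxcl3-negative members stood higher, at 439 CPM against 118, but 63.2% of those UMIs came from 1 cell and 161 CPM were left without it. These splits follow genes of the rule and are given as a description.

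The contrast between 2 or more and 0 or 1 marker genes was also measured in cells that the rule had left out. In the resident gene cells, 119 cells with 2207328 UMIs were set against 353 with 3613510, and in the cells with both Ly6c2 and Plac8, 25 with 550681 UMIs against 130 with 1767559. Of the 47 genes higher in the members, 33 could be tested in the resident gene cells. Of these 28 were higher there and 15 past 2-fold, beside 63 of 5545 genes past 2-fold over all. Of the 55 lower genes 51 could be tested, 42 were lower and 9 past 2-fold, beside 40 of 5545. Clec4e had log2 ratios of 2.31 (2.01 to 2.62) in the resident gene cells and 1.61 (1.38 to 1.85) in the Ly6c2 Plac8 cells, Il1rn of 1.54 and 1.42, and Slc7a11 of 1.86 and 1.38. Cxcl1 had log2 ratios of 1.24 (1.11 to 1.37) and 3.06 (2.65 to 3.50), and Il6 of 2.67 (2.22 to 3.14) and 2.25 (1.44 to 3.08). In the Ly6c2 Plac8 cells, 16 of the 17 higher genes tested were higher and 12 past 2-fold, beside 60 of 3356 over all. Of the 27 lower genes tested, 25 were lower and 5 past 2-fold, beside 29 of 3356. Over all genes tested, the median log2 ratio was 0.04 in the resident gene cells and -0.06 in the Ly6c2 Plac8 cells. The share of all genes on either side of 0 in these gates is not given, so the counts by direction have no exact background. Cxcl10 was the named exception among the chemokines, with a log2 ratio of 1.68 (1.24 to 2.13) in the resident gene cells but -0.57 (-1.16 to -0.02) in the Ly6c2 Plac8 cells. Ifit1 had a log2 ratio of 0.07 in both gates, with intervals that span 0.

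Among the lower genes, Jun had log2 ratios of -1.91 (-2.08 to -1.74) in the resident gene cells and -0.34 (-0.75 to 0.05) in the Ly6c2 Plac8 cells. In the latter Klf2 stood at -0.51 (-0.88 to -0.17), Egr1 at -0.55 (-1.08 to -0.06), Klf4 at -0.24 (-0.45 to -0.03) and Hspa1a at -1.64 (-2.24 to -1.10), all below 0, while Fos stood at 0.15 (0.01 to 0.30). The median over the immediate early genes was -0.39 and 0.16 in the 2 gates. Mmp13, at 3.42 in the members, had a log2 ratio of -1.80 (-2.94 to -0.82) in the resident gene cells, on 10 and 57 UMIs. Hbegf had one of -0.11 (-0.26 to 0.03) there, against 0.84 in the members. The difference between gates was not tested, since each gate holds cells of the same pooled libraries.

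**Figure D4:**
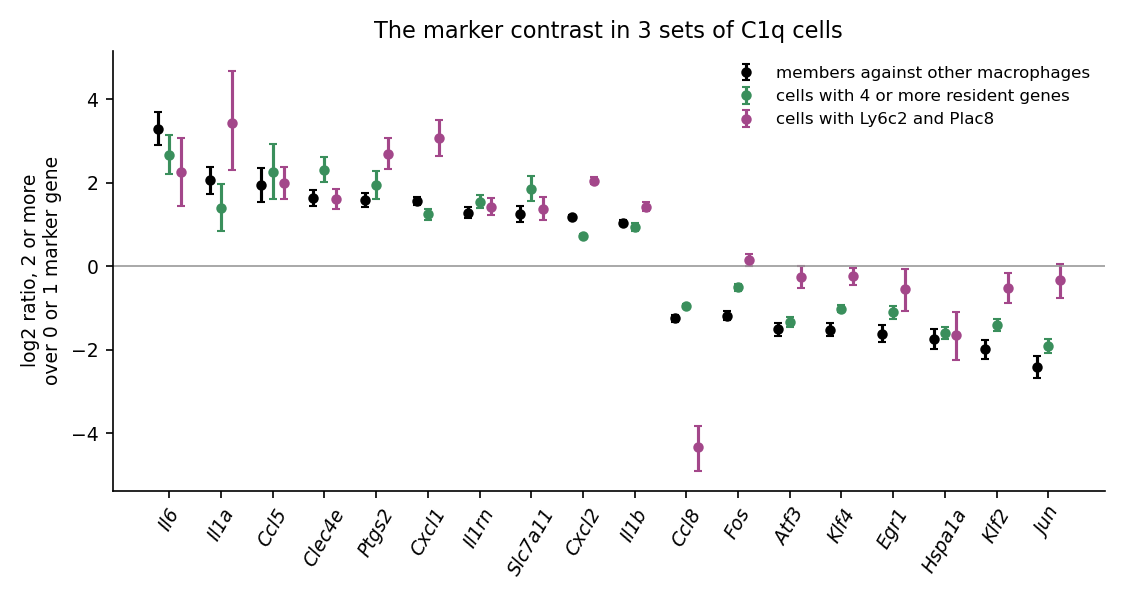
Log2 ratio of the level in cells with 2 or more over cells with 0 or 1 marker gene (y axis) for named genes (x axis), in the cells that meet the rest of the rule (black), the resident gene cells (green) and the cells with Ly6c2 and Plac8 (purple), with exact 95% counting intervals. The genes from Il6 to Il1b lie above 0 in all 3 sets, and Jun lies at -2.41, -1.91 and -0.34.

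To compare detection at equal depth, each cell was thinned to 2000 UMIs, which left out none of the 122 members and 27 of the 371 other macrophages. Il1b was then found in 66.4% of members (interval 57.3% to 74.7%, 77.9% before thinning) and 35.8% (30.7% to 41.1%, 46.9%) of the other macrophages. Il1rn was found in 56.6% (47.3% to 65.5%) and 29.1% (24.3% to 34.2%), Clec4e in 31.1% (23.1% to 40.2%) and 14.8% (11.2% to 19.0%), and Nlrp3 in 54.1% (44.8% to 63.2%) and 32.0% (27.1% to 37.2%). Jun was found in 9.02% (4.59% to 15.6%) of members and 23.0% (18.6% to 27.8%) of the others. Klf2 was found in 15.6% (9.64% to 23.3%) and 30.8% (26.0% to 36.0%), and Klf4 in 32.0% (23.8% to 41.0%) and 49.1% (43.7% to 54.5%). These shares were taken for chosen genes only, so that no background over all genes is given. The intervals of the groups did not overlap for the genes above, nor for Cxcl1, Ccl2, Cd14 and Fabp5, among others. They overlapped for Egr1, at 17.2% and 27.0%, Atf3, at 37.7% and 46.5%, and Fos, in 61 of 122 and 218 of 344 cells. They also overlapped for Hspa1a (13.9% and 18.9%), Hspa1b (9.02% and 12.5%), Tnf (31.1% and 23.5%), Ccl8 (23.0% and 31.7%) and Csf3 (3.28% and 3.49%). In the Ly6c2 Plac8 cells Il1b was found in 49.7% (41.3% to 58.0%) and Clec4e in 26.5% (19.6% to 34.4%), which overlaps the members. Il1rn and Nlrp3 were found there in 35.4% and 29.9%. The resident gene cells had Il1b, Il1rn, Clec4e and Nlrp3 in 22.6%, 19.1%, 6.67% and 19.1%. Hbegf was found in 25.4% of members and in 39.4% of the resident gene cells.

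Collagen-rich cells, chosen without Ptprc and with a median depth of 14967 UMIs, served to show how often these genes are found outside macrophages. Whether such UMIs are free RNA, come from doublets or are transcripts of these cells was not tested. Cxcl2 was found in 13.6% of 440 thinned collagen-rich cells, H2-Aa in 8.41%, Ccl8 in 8.18%, Il1b in 1.59% and Clec4e in 0.227%. Il10, Acod1, Il1a and Mmp13 were found in none, which allows a share of up to 0.682%. Cxcl3 was found in 0.682%. Cxcl1, Il6 and Ptgs2 were found in 143, 110 and 50 of these 440 cells, so that their UMIs were not confined to the macrophages. Areg was found in 11.4% of 44 keratin-rich cells (3.79% to 24.6%), beside 27.0% of members, and Jun in 84.1% of them. Il6 was found in 14 of 122 members (11.5%, 6.42% to 18.5%), a smaller share than the 110 of 440 collagen-rich cells (21.0% to 29.3%).

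**Figure D5:**
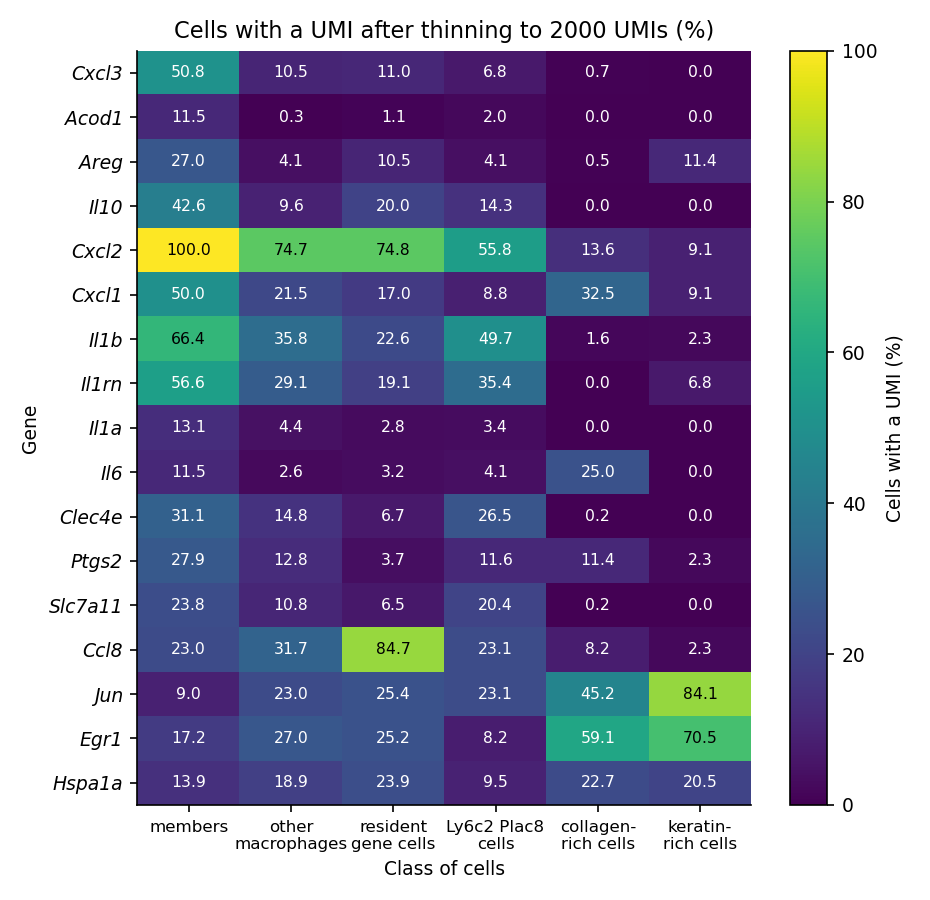
Percentage of cells with at least 1 UMI of each gene (rows) after thinning to 2000 UMIs, in 6 classes of cells (columns), with the value printed in each tile. Cxcl2 reaches 100% of members, Il1b 66.4%, and Il10, Acod1 and Il1a are at 0 in collagen-rich cells.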

How the data were processed

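Single cells of mouse dorsal skin, gated on F4/80 and on high MHC class II, had been profiled with droplet 3′ libraries, 1 per age from 2 pooled mice. The authors counted UMIs with Cell Ranger 4.0.0 on build mm10, per the submitters' processing notes, and deposited them unnormalized, as a single matrix of 32285 genes by 5257 barcodes in which every value is a whole UMI count. The annotation and any earlier filter on cells, not given in the sources used here, could change which cells and genes were counted.

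From the counts, the rule given with the results was applied in Python 3.11.15 with numpy 2.4.6, scipy 1.17.1, pandas 2.3.3 and matplotlib 3.10.9. UMIs were summed per group and divided by the group total (CPM). Levels have exact 95% Poisson intervals, log2 ratios an exact interval conditional on the 2 sums, and shares Clopper-Pearson intervals, all for counting error only. A sum of 0 was replaced by 3 counts in a ratio, and 3 counts are also the limit that a share of 0 allows. Genes with at least 100 UMIs over both groups counted as tested, and 2-fold was the line for higher or lower. Collagen-rich cells had at least 100 UMIs of the 3 collagen genes per 10000, keratin-rich cells at least 50 of Krt5 and Krt14, and neither had Ptprc. Thinning used seed 1. The ratio and its interval were tested on simulated Poisson counts without spread between cells, which is what the interval assumes. That check does not cover genes whose UMIs sit in few cells. No doublet caller was run.

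The members, the 22 gene lists and the 17 marker lists were chosen with earlier results of these data known. Named genes were the genes of the rule, up to 4 genes per list with the largest absolute log2 ratio, list genes of at least 200 CPM past 2-fold, and the 12 highest and 12 lowest genes outside the lists with 1 direction in both libraries. Further list members (Ccl2, Ccl7, Tnf, Ereg, Il10ra, Il10rb, Nfkbia, Tnfaip3, Maff and Dusp2) were named after their values were seen. Of the gene identifiers, 32158 were found in GENCODE vM21. Alternatives changed the cell filter, the rule, the library, the gene filter, the weighting and the reference, or left out single cells (the last chosen after seeing the data).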

Additional observations from a re-analysis of the deposited data

Results flagged for a closer look

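The ratio of 3 named genes had opposite directions in the 2 libraries, with a counting interval off 0 in each. Ccl3 had a log2 ratio of 1.43 in the library with suffix 1 and -0.25 in the library with suffix 2. Spp1 had log2 ratios of -4.07 and 3.53, and a single cell held 90.5% of its UMIs in the other macrophages. Cfb, complement factor B, had log2 ratios of -1.12 and 1.69 on 36 UMIs in members and 110 in the other macrophages. Each library is 1 pool of mice, so that the difference between libraries was not tested. Other macrophages had Ccl3 at 408 and 668 CPM by library, and members at 1098 and 564.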

How the results depend on the processing

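The number of members was 79 with a stricter cell filter, 34 with 3 of 4 marker genes, 53 when chosen on thinned counts and 33 in the library with suffix 2 alone, and stayed between 89 and 122 in the other alternatives. Genes higher in members numbered 27 with the stricter filter, 26 in the library with suffix 2, 25 without cells that carry markers of another type, 26 past 2-fold in both libraries, 95 and 13 with a gene filter of 50 and 500 UMIs, and 136 against all other C1q cells with low collagen. Genes lower in members numbered 222 with 3 of 4 marker genes, 270 on thinned counts, 17 in the library with suffix 2, 23 in both libraries, 146 and 12 with the filters of 50 and 500 UMIs, and 527 against all other C1q cells with low collagen. The number of genes tested also changed, so that many of these counts have unlike bases. It was 4673 under the rule as given and with 3 of 4 marker genes, 4657 on thinned counts and 3523 with the stricter filter. In the library with suffix 2 it was 1740, and without cells that carry markers of another type 3863. Against all other C1q cells with low collagen it was 7547, and with the gene filters of 50 and 500 UMIs 6540 and 1347. The cause of the changes in the counts was not tested.

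Of the 47 higher and 55 lower genes, all kept their direction and 37 and 46 stayed past 2-fold against other macrophages weighted to the members' depth. Without the top cell of each gene, an alternative chosen after seeing the data, 44 and 55 kept their direction and 37 and 52 stayed past 2-fold. Without cells that carry markers of another type, 41 and 53 kept their direction and 32 and 43 stayed past 2-fold. In the library with suffix 2 alone, 39 and 53 kept their direction and 30 and 40 stayed past 2-fold. Among the genes of the naming rule, those that changed direction in the library with suffix 2 included Spp1 (3.53), Ccl3 (-0.25) and Cfb (1.69). Without cells that carry markers of another type, they included Tm4sf1 (-0.19), Pakap (-1.19) and Mcpt4 (0.13). Mcpt4 is itself on the list of mast cell markers used to leave out those cells. The list medians of cyclic AMP, prostaglandin, MHC class II, monocyte, wound repair, engulfment and complement genes changed sign under at least 1 alternative.

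Depth limits which cells can be called members, 1 pooled library per age leaves no replicate, and doublets were not removed.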
